A study of Mus musculus with 6 samples.

Results

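Centrioles are short cylinders of microtubules that organise the centrosome and, once docked at the cell surface as basal bodies, template the cilium. The mRNA of 41 genes of this apparatus was followed in fibroblast lines that differ in Macf1, which encodes a giant linker of actin filaments and microtubules. The 41 genes were chosen by symbol from what their proteins are known to do, out of 32028 genes in the deposited counts, and all 41 were found. They fall into 8 roles: distal appendages, subdistal appendages, the cap of the centriole's distal end, centriolar satellites, duplication, the centriole wall and distal end, the linker and base, and accessory basal body factors. The rule goes by symbol and uses no measured value, but the genes were chosen with earlier results of these data known.

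There were 6 poly(A) RNA libraries, 3 per genotype, each from 1 clonal line of mouse embryonic fibroblasts immortalised with SV40 large T antigen. The clones called het came from Macf1flox/+ mice and those called knockout from Macf1flox/flox mice. Cre recombinase was delivered to all of them with the adeno-associated virus AAV8, driven by the CMV promoter, and each line was then raised from a single cell. The het controls thus carry a recombined Macf1 allele as well (Macf1-/+), while the knockout clones are given as carrying no intact one (Macf1-/-). RNA came from confluent cells. Serum starvation, which makes fibroblasts grow cilia, is described in the sources only for the cells that were stained. By the labels the genotypes came from different mice, so Macf1 and other differences between those mice cannot be told apart. Whether the clones of a genotype arose independently is not given, and p-values measure only the spread between these clones, which may be technical.

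The libraries held 15661342 to 18209673 estimated counts. Macf1 stood at 693, 696 and 579 CPM (counts relative to the scaled total of the library) in het replicates 1, 2 and 3 and at 309, 363 and 322 CPM in knockout replicates 1, 2 and 3 (edgeR log2 ratio of knockout over het -0.99, adjusted p = 0.00307). On the deposited FPKM values, which cover fewer transcripts, the log2 ratio was -0.54 (limma on log2(FPKM + 1), adjusted p = 0.0109). The sources do not name the floxed exons, and Macf1 RNA remained in the knockout clones, so the total of the gene cannot show the deletion. Of 12 fibroblast markers, 10 were tested and 7 were called lower in knockout clones (edgeR, 70%, against 14.2% of all genes tested). These 7 were Col1a1, Col1a2, Col3a1, Pdgfra, Pdgfrb, S100a4 and Ddr2. None was called higher, and the median log2 ratio of the 10 was -1.36. Vim and Fn1 were not called and were high in both genotypes (2425 and 5774 CPM in het clones, 2866 and 4269 CPM in knockout clones). Col1a1 and Col1a2 were high in the het clones only (1229 and 1056 CPM, against 7.4 and 0.816 CPM), and Thy1 was at or near 0 in both. The 12 fibroblast markers summed to 10089 to 13709 CPM in het clones and to 6255 to 8825 CPM in knockout clones. Their part in the results below was not tested. Markers of multiciliated cells, which build many basal bodies at once, were low. Foxj1, Mcidas, Gmnc and Deup1 each stayed below 0.3 CPM on average. Cetn4 averaged 3.63 CPM over the het clones and 4.64 CPM over the knockout clones. For Ccdc78 these means were 1.67 and 1.62 CPM, and for Ccno 0.984 and 0.336 CPM. Cetn4 and Ccdc78 were tested and not called (edgeR). The 11 markers summed to 6.28 to 7.78 CPM in het clones and to 4.76 to 9.46 CPM in knockout clones. The lists of epithelial, endothelial, haematopoietic and muscle markers each summed to at most 6.21 CPM in any clone, and 6 neural markers to 103 to 234 CPM in het clones and 115 to 125 CPM in knockout clones. Most of the neural sum was Nes (118 and 103 CPM, not called), and the other 3 tested neural markers were called lower in edgeR: Sox2 at 8.08 and 0.559 CPM, Tubb3 at 7.9 and 0.419 CPM, and Map2 at 40.6 and 16.6 CPM. Rbfox3 was at 0 and Gfap near 0 in both genotypes, and the part of these markers in the results was not tested either. In bulk RNA, fewer cells of a kind and less RNA per cell cannot be told apart.

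A centriole is built next to an existing one around a cartwheel, under the control of the kinase PLK4. It then matures by adding distal appendages, which dock it to the membrane, and subdistal appendages, which hold microtubules. Satellites are protein granules that gather around the centrosome and carry parts to and from it. In resting fibroblasts the older centriole becomes the basal body of a single primary cilium, after the CP110 cap leaves its distal end.

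The apparatus was expressed in both genotypes, and its mRNA levels differed modestly. Counts allowed a test for 40 of the 41 genes, all but Dcdc2a. Of these 40, 3 rose in the knockout clones (Cep170, Cep128 and 2700049A03Rik, the mouse gene of TALPID3), 5 fell (Fbf1, Cep152, Cep192, Cetn3 and Cep250) and 32 missed the threshold of 0.05 on the adjusted p (edgeR quasi-likelihood test). The 8 called genes are 20% of the 40. Over all 12745 genes tested, 28.1% were called, 13.9% as higher and 14.2% as lower. Het and knockout clones were fully separate in 14 of the 40 genes (35%), against 47.5% of all genes tested. The median log2 ratio, the log2 fold change of knockout over het, was -0.05, with 18 values above 0 and 22 below. All 40 lay between -0.55 and 0.66, so that none reached 2-fold, a size that 16.3% of all genes tested reached. For 37 of the 40 the 95% interval lay wholly inside 2-fold in either direction. The exceptions were 2700049A03Rik, Crocc and Bbof1.

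**Figure D1:**
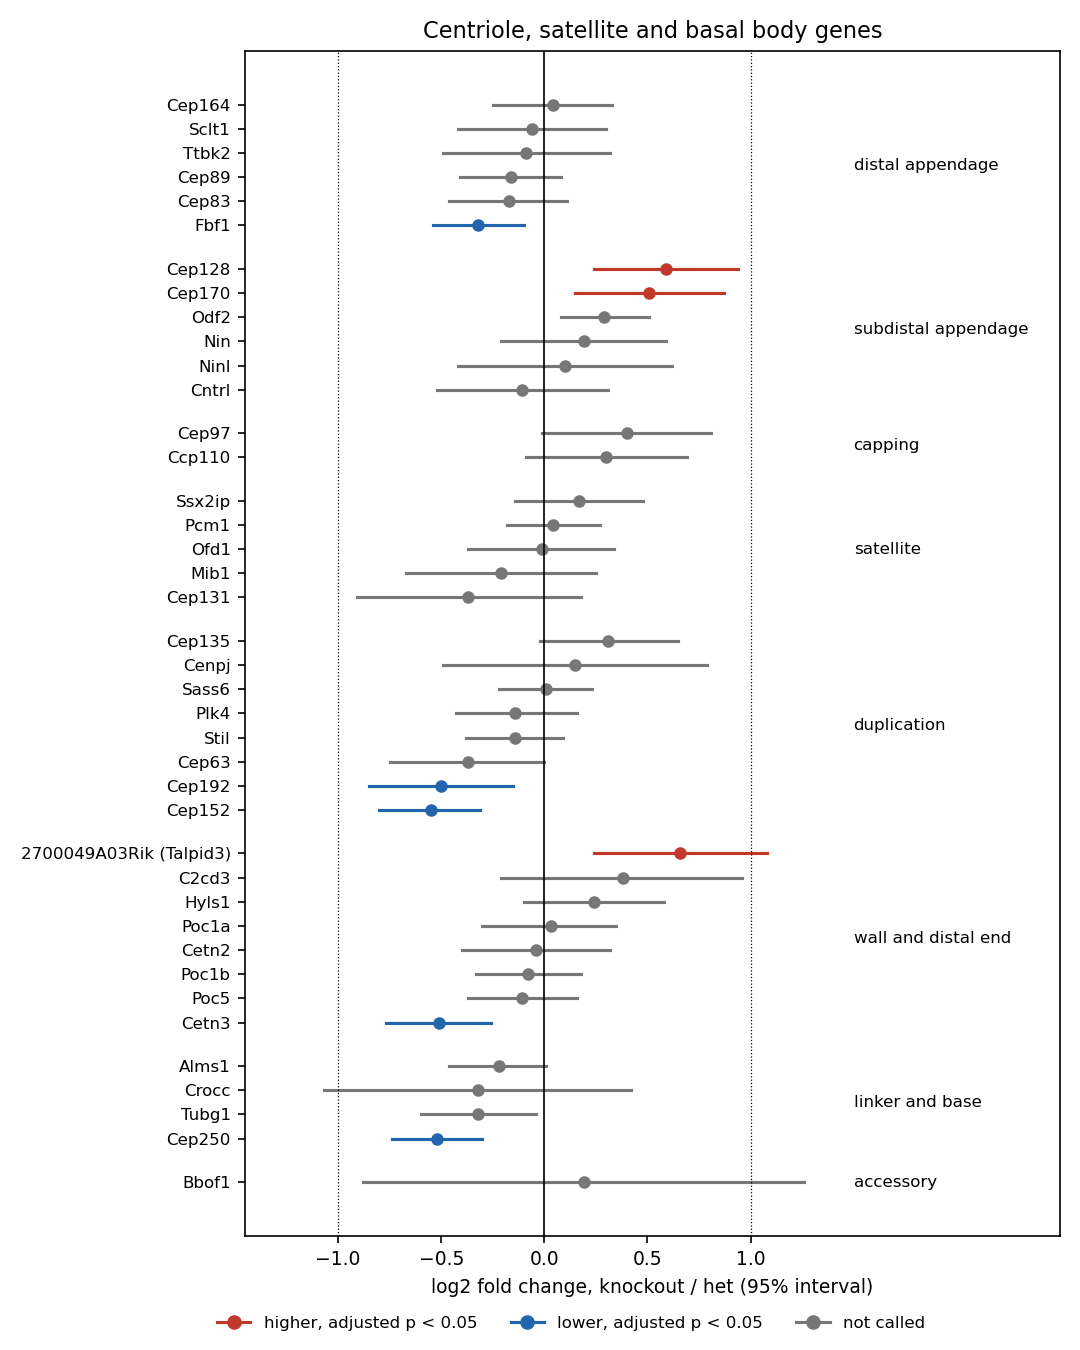
Log2 ratio of each of the 40 tested genes, knockout over het, grouped by role. Points are edgeR estimates from 3 clones per genotype, bars are 95% intervals and dotted lines mark 2-fold. The estimates lie between -0.55 and 0.66, and the intervals of 37 genes stay inside the dotted lines.

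Levels within the apparatus spanned a wide range. Per length of transcript, as TPM (counts divided by transcript length and scaled to the same total in each library), the highest means in het clones belonged to Tubg1 (125 ± 19, SD, n = 3), Odf2 (124 ± 9.61) and Cetn3 (103 ± 6). The median over the 40 tested genes was 17.6 TPM. The lowest were the accessory factors Bbof1, at 1.73 ± 0.5 TPM, and Dcdc2a, at 0.0538 ± 0.0264 TPM. Dcdc2a, a doublecortin-domain gene, had 9 counts in the 3 het and 4 in the 3 knockout libraries, too few for a test. Bbof1, which encodes a basal body orientation factor of multiciliated cells, stood at 1.8, 1.12 and 2.01 CPM in het against 2.2, 0.923 and 2.48 CPM in knockout replicates 1 to 3 (edgeR log2 ratio 0.19, adjusted p = 0.78).

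Of the 6 distal appendage genes, 1 was called, as lower (16.7%, against 28.1% of all genes tested called in either direction). The other 5 did not pass, and the median log2 ratio of the 6 was -0.12. Fbf1, whose product sits between the appendages and the membrane (ENSMUSG00000020776; chromosome 11, 116142285 to 116168166, minus strand, GRCm38), read 58.9, 57.1 and 61.1 CPM in het replicates 1 to 3. It read 44, 49.3 and 48.3 CPM in knockout replicates 1 to 3. The lowest het clone stood above the highest knockout clone. The means were 59 ± 1.98 and 47.2 ± 2.85 CPM (edgeR log2 ratio -0.32, SE 0.09, adjusted p = 0.0409). This is the smallest of the 8 called changes, and it passed in 4 of 15 other settings. The call ended whichever clone was left out (edgeR adjusted p 0.0587 to 0.126). Ttbk2, the kinase that triggers removal of the cap, stood at 48.1, 50.2 and 53.3 CPM in het against 40.9, 41 and 60.6 CPM in knockout clones (edgeR log2 ratio -0.09, adjusted p = 0.733). The genotypes overlapped because knockout replicate 3 was the highest of the 6 clones. Cep83, which lies at the root of the distal appendages, measured 45.1 ± 5.89 and 40 ± 2.13 CPM (edgeR log2 ratio -0.17, adjusted p = 0.318). Cep164, which recruits Ttbk2, measured 37.5 ± 2.74 and 38.6 ± 4.45 CPM, a log2 ratio of 0.04 with an interval from -0.25 to 0.33. Cep89 (37.9 ± 2.07 and 33.8 ± 2.54 CPM) and Sclt1 (22.9 ± 3.42 and 21.9 ± 2.43 CPM) did not pass either.

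Of the 6 subdistal appendage genes, 2 were called, both higher (33.3%, against 28.1% of all genes tested called in either direction). The other 4 did not pass, and the median log2 ratio of the 6 was 0.24. Cep170, which binds microtubules at the tips of these appendages (ENSMUSG00000057335; chromosome 1, 176733653 to 176814067, minus strand), read 140, 181 and 179 CPM in het replicates 1 to 3. It read 259, 257 and 197 CPM in knockout replicates 1 to 3. Knockout replicate 3 lay close to the highest het clone, but the genotypes did not overlap. The means were 167 ± 22.8 and 238 ± 35 CPM (edgeR log2 ratio 0.51, SE 0.15, adjusted p = 0.0458). The call held in 7 of 15 other settings and ended when any clone except knockout replicate 3 was left out (edgeR adjusted p 0.0851 to 0.157).

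Cep128, needed to assemble the subdistal appendages (ENSMUSG00000061533; chromosome 12, 90998492 to 91384409, minus strand), read 21.7, 17.9 and 19.8 CPM in het replicates 1 to 3. It read 27.5, 27 and 35.1 CPM in knockout replicates 1 to 3. Every knockout clone was above every het clone, and knockout replicate 3 was the highest. The means were 19.8 ± 1.92 and 29.8 ± 4.52 CPM (edgeR log2 ratio 0.59, SE 0.15, adjusted p = 0.0258). It held in 10 of 15 other settings. The call ended with edgeR when het replicate 2 or 3 (adjusted p = 0.0905 and 0.0736) or knockout replicate 1 or 2 was left out (0.0573 and 0.0633). With the level of its chromosomal neighbours taken out, the log2 ratio was 0.14 (edgeR adjusted p = 0.538).

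Odf2, the foundation of the subdistal appendages, just missed the threshold. Its het clones read 172, 167 and 157 CPM and its knockout clones 196, 195 and 218 CPM, with no overlap (edgeR log2 ratio 0.29, SE 0.09, adjusted p = 0.0519; 0.0143 with DESeq2). With the level of its chromosomal neighbours taken out, as described further down, its log2 ratio turned to -0.24 (edgeR adjusted p = 0.101). Cntrl, the gene of centriolin, measured 113 ± 12.9 and 105 ± 22.9 CPM (edgeR log2 ratio -0.11, adjusted p = 0.679). Nin, which encodes the microtubule anchor ninein, measured 70.6 ± 16.7 and 80.6 ± 3.95 CPM, and its relative Ninl 28.7 ± 3.98 and 30.7 ± 9.02 CPM. Nin passed when het replicate 1, its highest het clone at 89.5 CPM, was left out (edgeR adjusted p = 0.0354). Summed over the 6 genes, het clones held 540 to 583 CPM and knockout clones 670 to 695 CPM, without overlap. Cep170 and Odf2 make up most of that sum.

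The capping pair did not pass in edgeR or DESeq2, nor did either gene reach an unadjusted p of 0.05 in edgeR. Ccp110, the gene of the cap protein CP110, stood at 57.9, 68 and 66.5 CPM in het against 64.2, 75.1 and 97.8 CPM in knockout clones (edgeR log2 ratio 0.30, adjusted p = 0.215). Its partner Cep97 stood at 11.6, 15.9 and 14.2 CPM in het against 15.9, 18.9 and 20.3 CPM in knockout clones (edgeR log2 ratio 0.40, SE 0.17, adjusted p = 0.126). The genotypes overlapped for Ccp110 and touched without overlapping for Cep97. On the deposited FPKM values Cep97 had a log2 ratio of 0.85 and passed (limma on log2(FPKM + 1), adjusted p = 0.029), but those values cover only Cep97-202 and Cep97-205 and not Cep97-201, which holds 52.5% of its counts.

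None of the 5 satellite genes passed in edgeR or DESeq2 or reached an unadjusted p of 0.05 in edgeR, and their genotypes overlapped in every case. Mib1, a ubiquitin ligase found at satellites, stood at 229, 149 and 177 CPM in het against 184, 166 and 129 CPM in knockout clones (edgeR log2 ratio -0.21, adjusted p = 0.456). Pcm1, the scaffold of the granules, stood at 182, 179 and 162 CPM in het against 185, 168 and 186 CPM in knockout clones. Its log2 ratio was 0.04 with an interval from -0.18 to 0.27 (edgeR adjusted p = 0.753). Cep131 measured 14.1 ± 1.29 and 10.9 ± 3.06 CPM, Ssx2ip 47.4 ± 7.21 and 53.3 ± 3.01 CPM, and Ofd1, which acts at satellites and at the distal end of the centriole, 28.5 ± 2.16 and 28.2 ± 4.94 CPM. Log2 ratios of the 5 genes ran from -0.37 for Cep131 to 0.17 for Ssx2ip.

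**Figure D2:**
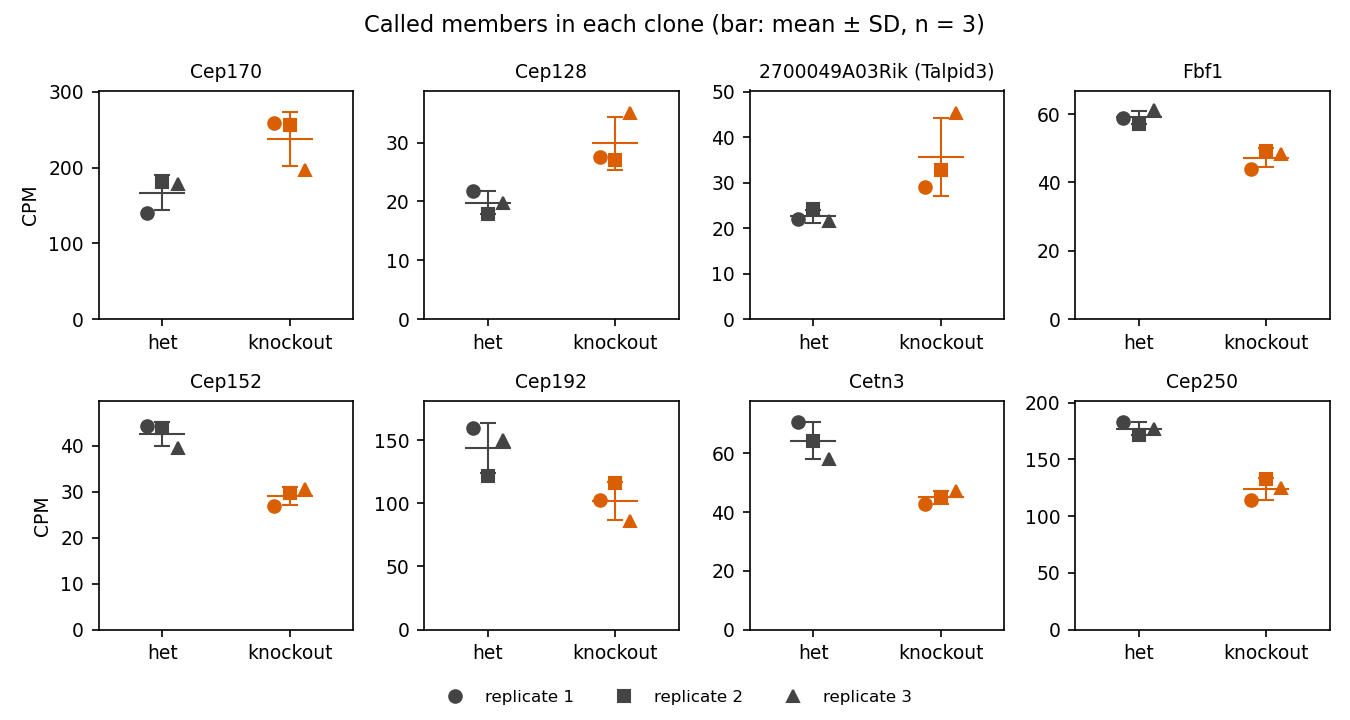
CPM of the 8 called genes in each clone, on axes that start at 0, with marker shape giving the replicate number. Horizontal bars are means and whiskers SD, n = 3 clones per genotype. In all 8 panels the knockout clones lie wholly above (Cep170, Cep128, 2700049A03Rik) or wholly below (the other 5) the het clones. The 8 genes were picked by their calls in these same clones, and 47.5% of all genes tested were fully separate.

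Of the 8 duplication genes, 2 were called, both lower (25%, against 28.1% of all genes tested called in either direction). The other 6 did not pass, and the median log2 ratio of the 8 was -0.14. Cep152 (ENSMUSG00000068394; chromosome 2, 125563088 to 125625113, minus strand) read 44.3, 43.8 and 39.6 CPM in het replicates 1 to 3. It read 26.9, 29.7 and 30.6 CPM in knockout replicates 1 to 3. The 3 clones of each genotype stood close together, with a wide gap between the genotypes. The means were 42.6 ± 2.56 and 29 ± 1.92 CPM (edgeR log2 ratio -0.55, SE 0.10, adjusted p = 0.0099), and the call held in all 15 other settings. Cep192, which recruits PLK4 together with Cep152 (ENSMUSG00000024542; chromosome 18, 67800107 to 67885170, plus strand), read 160, 122 and 150 CPM in het and 103, 116 and 86.2 CPM in knockout replicates 1 to 3. Het replicate 2 and knockout replicate 2 lay close to each other, without overlap. The means were 144 ± 19.3 and 102 ± 15 CPM (edgeR log2 ratio -0.50, SE 0.15, adjusted p = 0.0444). The call held in 6 of 15 other settings, and leaving out any clone except het replicate 2 ended it (edgeR adjusted p 0.0675 to 0.118).

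Plk4 stood at 112, 98.2 and 82 CPM in het against 91.1, 84.5 and 90 CPM in knockout clones (edgeR log2 ratio -0.14, adjusted p = 0.459), all knockout values within the het range. Stil, which binds PLK4 and the cartwheel, stood at 79, 75 and 68 CPM in het against 62.9, 68.4 and 69.4 CPM in knockout clones (edgeR log2 ratio -0.14, adjusted p = 0.305). Sass6, the building block of the cartwheel, measured 35.7 ± 1.7 and 35.9 ± 1.53 CPM, a log2 ratio of 0.01 with an interval from -0.22 to 0.23. Cenpj, which sets centriole length, measured 28.3 ± 5.76 and 31.3 ± 11 CPM. Cep63, the partner of Cep152, measured 25.3 ± 3.47 and 19.5 ± 2.68 CPM, and Cep135, which ties the cartwheel to the wall, 33.6 ± 0.928 and 41.7 ± 7.59 CPM. Neither Cep63 nor Cep135 overlapped between genotypes, and neither passed (log2 ratios -0.37 and 0.31, adjusted p = 0.124 and 0.144, edgeR). Summed over the 8 genes, het clones held 459 to 517 CPM and knockout clones 400 to 424 CPM.

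Several duplication genes are transcribed with the cell cycle, so 25 cell cycle genes were read beside them. Of these, 5 rose (Plk1 and the replication helicase genes Mcm2, Mcm3, Mcm4 and Mcm6). Another 5 fell (the mitotic genes Top2a, Ccnb1, Aurkb, Tpx2 and Foxm1) and 15 did not pass. The 10 called genes are 40% of the 25, against 28.1% of all genes tested. Het and knockout clones were fully separate in 16 of the 25 (64%), against 47.5% of all genes tested. Mcm6 rose from 370 ± 21.5 to 524 ± 42.6 CPM and Aurkb fell from 109 ± 3.89 to 75.7 ± 0.971 CPM (edgeR adjusted p = 0.0189 and 0.00495). The proliferation marker Mki67 measured 887 ± 64.2 and 911 ± 89.6 CPM (edgeR adjusted p = 0.856). The 25 genes summed to 6970 to 7467 CPM in het clones and to 6969 to 7195 CPM in knockout clones. Their part in the duplication results was not tested.

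Of the 8 genes of the centriole wall and distal end, 1 was higher and 1 lower (25% called, against 28.1% of all genes tested). The median log2 ratio of the 8 was -0.01. Cetn3, the gene of centrin 3, a calcium-binding protein in the centriole lumen (ENSMUSG00000021537; chromosome 13, 81783077 to 81797155, plus strand), read 70.7, 64.4 and 58.1 CPM in het replicates 1 to 3. It read 42.7, 45.2 and 47.3 CPM in knockout replicates 1 to 3. All knockout clones were below the lowest het clone. The means were 64.4 ± 6.27 and 45.1 ± 2.26 CPM (edgeR log2 ratio -0.51, SE 0.11, adjusted p = 0.0142). The call ended without knockout replicate 1 (0.0576 as edgeR adjusted p) or knockout replicate 2 (0.0659) and held in the other 13 settings. Cetn2, another centrin gene, measured 33.8, 29.6 and 28.6 CPM in het against 31.8, 24.1 and 33.6 CPM in knockout clones (edgeR log2 ratio -0.04, adjusted p = 0.867).

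2700049A03Rik (ENSMUSG00000034601; chromosome 12, 71136848 to 71243303, plus strand) encodes TALPID3, a distal-end protein needed for ciliogenesis. It read 22, 24.1 and 21.6 CPM in het replicates 1 to 3. It read 29, 32.7 and 45.3 CPM in knockout replicates 1 to 3. The het clones were tight, the knockout clones were spread, and knockout replicate 3 was again the highest. The means were 22.5 ± 1.37 and 35.7 ± 8.55 CPM (edgeR log2 ratio 0.66, SE 0.18, adjusted p = 0.0334), the largest change among the 40 genes. The call held in 9 of 15 other settings. Leaving out any het clone or knockout replicate 2 ended it (edgeR adjusted p 0.0647 to 0.0965), and without knockout replicate 3 the log2 ratio was 0.45 (edgeR adjusted p = 0.04).

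C2cd3, which lengthens the centriole and seats the distal appendages, stood at 39.7, 49.4 and 55.1 CPM in het against 49.2, 51.2 and 86.6 CPM in knockout clones (edgeR log2 ratio 0.38, SE 0.25, adjusted p = 0.289). A single high clone, knockout replicate 3, carried that difference. Poc1a (27.7 ± 3.38 and 28.2 ± 2.86 CPM), Poc1b (24.1 ± 1.57 and 22.8 ± 0.377 CPM) and Poc5 (29 ± 3.01 and 27 ± 0.137 CPM), which stabilise the wall, had log2 ratios of 0.03, -0.08 and -0.11. Hyls1, which encodes a protein of the centriole core, measured 15.4 ± 1.96 and 18.2 ± 1.17 CPM (edgeR log2 ratio 0.24, adjusted p = 0.253).

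All 4 genes of the linker and base had values below 0, and 1 of them passed (25%, against 28.1% of all genes tested). Cep250 encodes C-Nap1, which anchors the linker between the centrioles (ENSMUSG00000038241; chromosome 2, 155956458 to 155998900, plus strand). It read 183, 171 and 177 CPM in het replicates 1 to 3. It read 114, 133 and 125 CPM in knockout replicates 1 to 3. The gap between the genotypes was several times the spread within either. The means were 177 ± 5.74 and 124 ± 9.46 CPM (edgeR log2 ratio -0.52, SE 0.09, adjusted p = 0.00838), the smallest adjusted p of the 40 genes. The call held in all 15 other settings.

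Tubg1, the gene of the microtubule nucleator gamma-tubulin, stood at 97.4, 115 and 123 CPM in het against 82.4, 90.5 and 95.3 CPM in knockout clones (edgeR log2 ratio -0.32, SE 0.12, adjusted p = 0.0812). It passed with DESeq2 (adjusted p = 0.046) and without het replicate 1, its lowest het clone (edgeR adjusted p = 0.0304). Alms1, found at the base of the centriole, stood at 67, 66 and 68.8 CPM in het against 54.2, 55.1 and 63.4 CPM in knockout clones (edgeR log2 ratio -0.22, SE 0.10, adjusted p = 0.131). Neither gene overlapped between the genotypes. Crocc, the gene of the rootlet protein rootletin, measured 12.6 ± 2.69 and 10.1 ± 4.12 CPM. Its log2 ratio of -0.32 had an interval from -1.07 to 0.42, so a 2-fold loss is inside what these clones allow. Summed over the 4 genes, het clones held 362 to 382 CPM and knockout clones 258 to 299 CPM.

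Counts were also resolved by transcript. Exons are largely shared between the transcripts of a gene, so how reads divide between them is an estimate. Of 261 transcripts of the 41 genes, 130 were tested, with 5 higher and 3 lower in knockout clones (edgeR). Of these 8, Cep250-202, Cntrl-201 and Plk4-204 reached the minimum count in every clone of 1 genotype only, which is how they came to be tested, so they are given as values without a fold or p. Over all 34761 transcripts tested, 7.92% were called, a larger share than these 8 of 130.

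The rise of 2700049A03Rik lay in 1 of its transcripts. The longer, 2700049A03Rik-203 (30 exons, 5763 bases), read 17.3, 20.6 and 18.5 CPM in het against 17.3, 20 and 24.9 CPM in knockout clones. Its means of 18.8 ± 1.66 and 20.7 ± 3.85 CPM did not differ beyond the spread (edgeR on transcripts, log2 ratio 0.21, adjusted p = 0.526). The shorter, 2700049A03Rik-201 (28 exons, 4507 bases), read 4.55, 3.43 and 2.95 CPM in het against 11.7, 12.5 and 20.3 CPM in knockout clones. All knockout clones were more than double the highest het clone. The means were 3.64 ± 0.821 and 14.8 ± 4.71 CPM (edgeR on transcripts, log2 ratio 2.10, SE 0.31, adjusted p = 0.0154). In the authors' deposited table, computed per transcript, 2700049A03Rik-201 has a log2 ratio of 2.06 with an FDR of 2.37e-05. Of the counts of these 2 transcripts, the shorter held 20.9%, 14.3% and 13.8% in het and 40.4%, 38.5% and 44.9% in knockout replicates 1 to 3.

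By the GENCODE annotation the shorter transcript lacks 2 whole coding exons of the longer, exons 28 and 29 of 30. Together they hold 264 bases, which is 88 codons with no base left over, so the reading frame is kept. It also begins 992 bases further downstream, at the coding start. The 2 exons are shown because they are the coding difference between the transcript that rose and the one that did not pass. The first lies at chr12:71216042-71216196 and has 155 bases, the second at chr12:71219191-71219299 and has 109 bases, both on the plus strand of GRCm38.
2700049A03Rik exon 28: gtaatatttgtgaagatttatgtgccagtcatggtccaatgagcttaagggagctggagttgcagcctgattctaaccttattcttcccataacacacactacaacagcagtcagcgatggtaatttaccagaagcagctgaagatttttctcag
2700049A03Rik exon 29: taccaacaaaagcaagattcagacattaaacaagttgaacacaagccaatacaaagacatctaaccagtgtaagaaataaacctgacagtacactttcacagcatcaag

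For Cep250, whose total fell, 2 transcripts are given. Cep250-202 reached the minimum count in knockout clones only, so its values are a description and no test of a shift. The main transcript of Cep250, Cep250-204 (33 exons), read 134, 131 and 145 CPM in het against 86.2, 93.7 and 84.7 CPM in knockout clones. It fell (means 137 ± 7.17 and 88.2 ± 4.86 CPM, edgeR on transcripts log2 ratio -0.56, SE 0.10, adjusted p = 0.0253). Cep250-202 (34 exons) read 0, 0.112 and 0.188 CPM in het against 5.86, 10.2 and 13.1 CPM in knockout clones. It had 5 counts in the 3 het libraries together and 515 in the 3 knockout libraries, and the genotypes did not overlap. As a share of the counts of these 2 transcripts, Cep250-202 held at most 0.141% in a het clone and 6.38%, 9.82% and 13.4% in knockout replicates 1 to 3. By the annotation it lacks 63 coding bases of Cep250-204 inside exon 11, or 21 codons. Cep250-202 has 7919 bases and Cep250-204 has 7977, so these 63 bases are not the whole difference. Bases held only by Cep250-202 were not examined, nor was whether the reading frame is kept. The missing stretch of 63 bases lies at chr2:155970157-155970219 on the plus strand of GRCm38. It is shown because its loss marks the transcript seen almost only in knockout clones, and the capitals mark its first and last 2 bases, GT and AG, the letters at the ends of most introns.
Cep250 exon 11 segment: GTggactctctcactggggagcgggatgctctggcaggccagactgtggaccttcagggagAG

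Other transcripts differed as well. Cep97-202 rose from 3.65 ± 0.52 to 7.82 ± 1.47 CPM, while Cep97-201 measured 8.77 ± 1.71 and 8.02 ± 3.25 CPM (edgeR on transcripts, adjusted p = 0.0457 and 0.94). Odf2-204, which holds 48% of the counts of Odf2, rose from 73.9 ± 4.06 to 103 ± 11.8 CPM (edgeR on transcripts, adjusted p = 0.0483). Cntrl-201, a short form with 11 exons, stood at 0.67 ± 0.148 and 2.93 ± 0.583 CPM. Of transcripts annotated as keeping an intron, Cep250-207 fell from 7.69 ± 0.585 to 2.57 ± 0.952 CPM (edgeR on transcripts, adjusted p = 0.0412), and Plk4-204 stood at 2.73 ± 0.844 and 0.684 ± 0.124 CPM. Transcripts of this kind were lower over all genes too, with 73% of 6845 below 0 and a median log2 ratio of -0.39, and the part of that shift in these values was not tested. The authors' deposited table lists 89 transcripts of these genes, of which 8 in 6 genes have an FDR below 0.05. The share over all transcripts of that table was not computed, so the count of 8 cannot be called high or low. Cep250-203, Stil-206 and Tubg1-202 are among them there (log2 ratios -3.45, -1.76 and -1.96) and did not pass here (edgeR on transcripts, adjusted p = 0.0811, 0.113 and 0.074). Cep250-202 and Cntrl-201 are not among the 89.

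**Figure D3:**
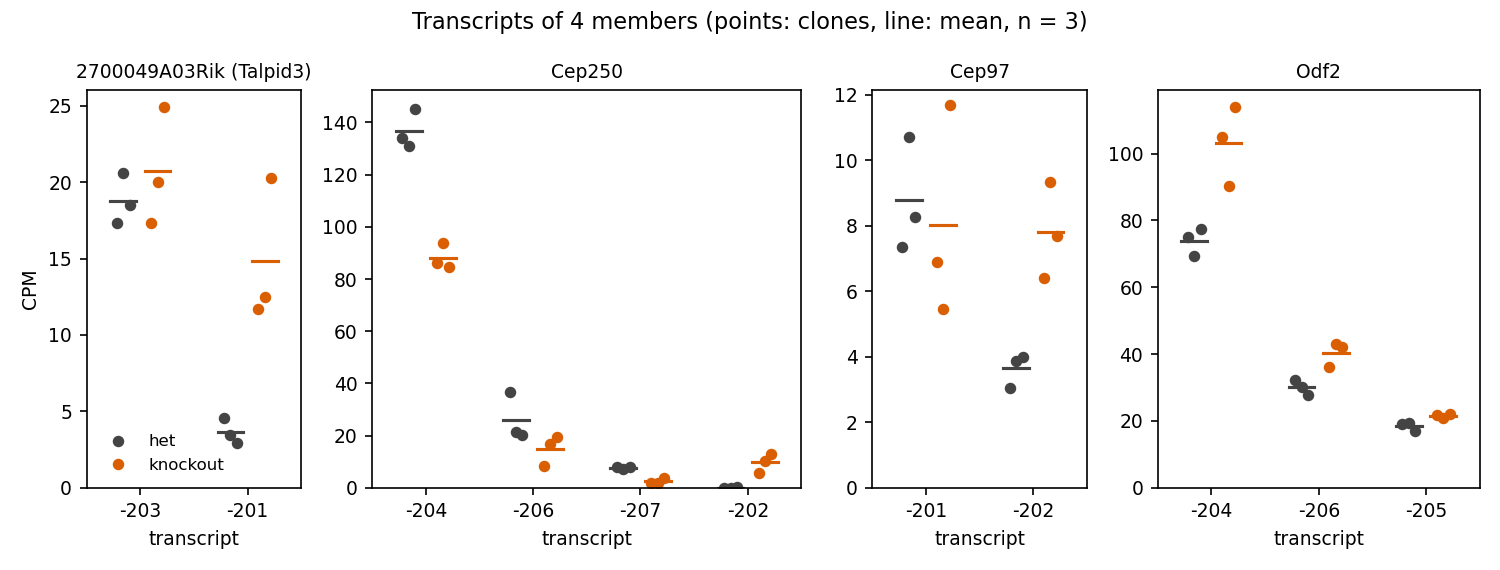
CPM of the main transcripts of 4 genes in each clone (points), with the mean of 3 clones as a line, on axes that start at 0. For 2700049A03Rik the genotypes overlap in 2700049A03Rik-203 and separate in 2700049A03Rik-201. Cep250-204 is lower and Cep250-202 higher in the knockout clones. Cep250-202 reached the minimum count in knockout clones only and is shown as values.

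The position of a gene on its chromosome went with its value. For each gene the median log2 ratio of the 20 tested genes on either side was taken as the local level. Across the 40 genes, which are not independent replicates, Pearson's r between a gene's log2 ratio and its local level was 0.66, against 0.12 across all genes tested. The 40 values come from the same 6 libraries. Of the 40, 33 had the sign of their local level, against 60.9% of all genes tested. All 4 tested genes on chromosome 12 (Nin, Cep128, 2700049A03Rik and Bbof1) had values above 0, on a chromosome where the median of 424 tested genes was 0.41. The local level was 0.46 around Cep128 and 0.33 around 2700049A03Rik, but 0.05 around Cep170. Around the genes that fell it was -0.19 (Cep152), -0.16 (Cep192), -0.11 (Cep250 and Fbf1) and -0.10 (Cetn3). With the local level taken out, Cep152 (-0.36), Cetn3 (-0.42) and Cep250 (-0.40) still passed (edgeR adjusted p = 0.0471, 0.0335 and 0.0233). None of the 3 genes that rose did so (Cep128 0.14, 2700049A03Rik 0.33, Cep170 0.46, edgeR adjusted p = 0.538, 0.216 and 0.0707), nor did Fbf1 and Cep192.

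**Figure D4:**
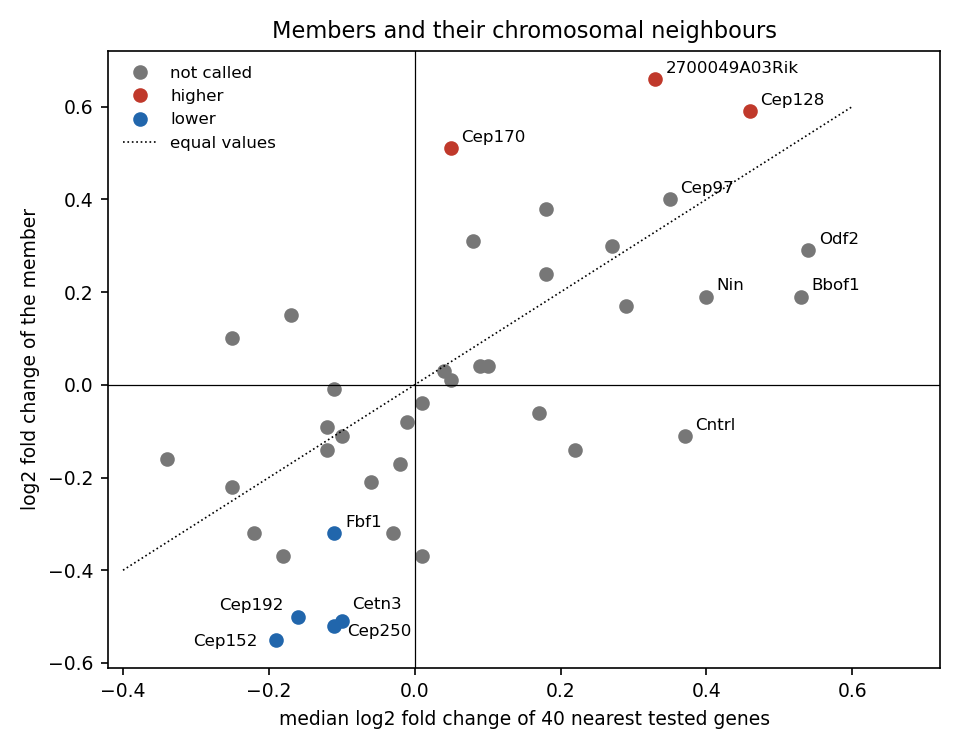
Log2 ratio of each tested gene (vertical axis) against the median log2 ratio of its 40 nearest tested genes on the chromosome (horizontal axis), with a dotted line of equal values. Cep128 and 2700049A03Rik lie in stretches with raised medians of 0.46 and 0.33, while Cep152, Cep192, Cetn3 and Cep250 lie well below medians of -0.10 to -0.19.

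Clones of the same genotype also differed in a shared way. Knockout replicate 3 was the highest of the knockout clones in 29 of the 40 genes (72.5%), against 45.9% of all genes tested. Het replicate 1 was the highest het clone in 24 of the 40 (60%), against 37.9%. The spread within a genotype was nevertheless small, with a median SD on the log2 scale of 0.14 in het and 0.16 in knockout clones, against 0.18 and 0.17 over all genes tested.

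The promoters of the genes were read for short motifs. RefSeq promoters on GRCm38.p6, from 250 bases before to 50 after a start, were found for 37 of the 41 genes, with 48 promoters between them. There was none for Cep192, Mib1, Pcm1 and Tubg1. On either strand, GTTGCC, part of the X-box bound by RFX factors, the regulators of ciliary genes, was found in 20.8% of the 48 promoters and in 12.5% of all 32851 promoters. The CCAAT box was found in 56.2% and 37.4%. The cell cycle motif TTTGAA was found in 22.9% and 17.9%. The E2F motifs TTCCCGCC and TTTCCCGC, which can overlap each other, were found in 6.25% and 4.17% (3 and 2 promoters), against 2.19% and 1.07%. Promoters of 1 gene can overlap, so the same match can count more than once. By gene, GTTGCC was found in 9 of the 37, CCAAT in 22, TTTGAA in 9 and each E2F motif in 2. Over all 27025 genes with promoters the numbers were 3821, 11096 and 5466, and 681 and 334 for the E2F motifs. A match is a description of letters and not a site. Promoters of 2 genes that rose and of 2 that fell are shown with matches in capitals, because they differ in which motifs they hold. These 4 do not stand for all called genes. Cep250, which fell, held none of these motifs, and Fbf1, which also fell, held 1 CCAAT match. No promoter of Cep170, which rose, held GTTGCC.
2700049A03Rik, chr12:71136598-71136897, plus strand: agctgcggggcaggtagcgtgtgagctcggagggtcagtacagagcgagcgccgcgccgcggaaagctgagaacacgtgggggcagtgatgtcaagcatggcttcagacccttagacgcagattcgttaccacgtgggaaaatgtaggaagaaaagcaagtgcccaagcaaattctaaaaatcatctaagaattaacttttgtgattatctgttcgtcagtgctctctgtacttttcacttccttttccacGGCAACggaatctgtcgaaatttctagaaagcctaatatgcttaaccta
Cep128, chr12:91384360-91384659, minus strand: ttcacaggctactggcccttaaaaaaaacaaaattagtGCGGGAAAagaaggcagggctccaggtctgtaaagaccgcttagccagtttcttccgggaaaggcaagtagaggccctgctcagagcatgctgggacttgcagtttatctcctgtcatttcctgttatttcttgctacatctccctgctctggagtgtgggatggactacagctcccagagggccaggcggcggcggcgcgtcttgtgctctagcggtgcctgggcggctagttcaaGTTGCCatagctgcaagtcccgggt
Cep152, chr2:125625064-125625363, minus strand: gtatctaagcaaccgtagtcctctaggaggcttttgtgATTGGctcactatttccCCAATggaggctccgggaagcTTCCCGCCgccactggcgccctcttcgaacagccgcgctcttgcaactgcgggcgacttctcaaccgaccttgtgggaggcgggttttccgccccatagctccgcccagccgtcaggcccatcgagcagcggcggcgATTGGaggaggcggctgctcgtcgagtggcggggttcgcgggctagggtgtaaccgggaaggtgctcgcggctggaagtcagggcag
Cetn3, chr13:81782997-81783296, plus strand: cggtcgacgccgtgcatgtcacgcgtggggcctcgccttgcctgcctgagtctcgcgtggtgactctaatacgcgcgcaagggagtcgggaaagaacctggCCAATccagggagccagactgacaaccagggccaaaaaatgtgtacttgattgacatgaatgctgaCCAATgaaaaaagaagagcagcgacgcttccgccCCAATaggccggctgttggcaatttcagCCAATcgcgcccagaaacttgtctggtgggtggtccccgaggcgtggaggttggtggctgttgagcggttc

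In 2700049A03Rik the match to GTTGCC is on the opposite strand, as GGCAAC, 1 base after the start, and in Cep128 it lies 25 bases after the start. Cep128 also holds TTTCCCGC on the opposite strand. Cep152 holds TTCCCGCC and 3 CCAAT matches, of which 2 read ATTGG on the printed strand, and Cetn3 holds 4 CCAAT matches. Of the genes that rose, 0 of 4 promoters held CCAAT, and of the genes that fell 3 of 4 did, too few to compare. The promoter printed for 2700049A03Rik is that of the longer transcript.

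Other genes of the centrosome were read from a list of 63 outside the 41 genes. Of these, 62 were tested, with 4 higher, 7 lower and 51 not passing (17.7% called, against 28.1% of all genes tested), and a median log2 ratio of -0.09. Het and knockout clones were fully separate in 36 of the 62 (58.1%), against 47.5% of all genes tested. Cetn1, the remaining one, had no counts. Kif24, a kinesin that works with the CP110 cap, fell from 30.7 ± 0.829 to 19.4 ± 1.66 CPM (edgeR log2 ratio -0.67, adjusted p = 0.00663). Tbccd1, which positions the centrosome, rose from 24.5 ± 1.11 to 36.8 ± 2.18 CPM (edgeR log2 ratio 0.58, adjusted p = 0.00757). Akap9, a centrosome and Golgi scaffold, rose from 107 ± 1.93 to 149 ± 12.9 CPM (edgeR log2 ratio 0.48, adjusted p = 0.0117). Tubgcp2, a subunit of the gamma-tubulin ring complex, rose from 62 ± 3.01 to 86.1 ± 5.63 CPM (edgeR log2 ratio 0.47, adjusted p = 0.0118). Dzip1l also rose, and Fgfr1op, 4933427D14Rik, Tedc1, Nek2, Cdk5rap2 and Ccdc77 fell, by 0.26 (Cdk5rap2) to 0.78 (Ccdc77) on the log2 scale. Nek2, the kinase that dissolves the linker anchored by Cep250, fell by 0.40 on the log2 scale (edgeR adjusted p = 0.0317).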

How the data were processed

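Trimmomatic 0.36, kallisto 0.42.5, edgeR and build GRCm38.p4 are credited to the submitters' processing notes. The deposited tables hold estimated counts for each of 96626 transcripts (48.2% of values not whole), FPKM values for 24799 of them, and a table with log2 fold changes, log2 mean CPM, p-values and FDR per transcript. Per the labels, a stranded mRNA kit was used.

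Transcripts were assigned to genes with GENCODE M21 on GRCm38 (95213), or through the authors' deposited table (260). The 1153 without a match held 0.0174% to 0.0278% of counts. Counts were summed per gene and rounded. Reads shared between similar genes are divided by estimation.

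Genes kept by filterByExpr (minimum count 10, minimum total 15) went through TMM scaling and a robust quasi-likelihood test (edgeR 4.0.16, R 4.3.3). P-values are two-sided and adjusted by Benjamini and Hochberg over 12745 genes, with a threshold of 0.05. Transcripts were tested likewise. CPM use TMM-scaled totals. TPM were computed from estimated counts and annotated transcript lengths. Alternatives used DESeq2 1.42.0, limma 3.58.1 and those listed in the closing section. The genes and lists were chosen with earlier results of these data known. Named genes are the called members, the 2 most abundant others of each role, up to 4 called genes of the other centrosome list with the smallest adjusted p, and Macf1. The rest are given in brief. Nek2 was added after its value was seen.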

Additional observations from a re-analysis of the deposited data

How the results depend on the processing

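No paired analysis was possible because replicate numbers were given in accession order and no label pairs clones. The count of called genes was 3585 in the reported fit and 1566 to 3825 when 1 clone was left out, lowest without knockout replicate 2, and 1892 and 2227 without knockout replicate 1 or het replicate 2. Of the 41 genes, 3 were called higher, with 0 once the local chromosome median was taken out and 0 to 3 on leaving out a clone. The 5 called lower became 3 with no filter on low counts, 3 on log2(FPKM + 1), 3 on log2(FPKM + 0.1), 3 with the local median taken out, and 2 to 4 without 1 clone. RLE scaling, library totals and at least 1 CPM in 3 samples gave 2 higher.

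In the other centrosome list, 4 were higher (2 to 4 without 1 clone). The 7 lower became 11 with DESeq2, 3 with no filter, 4 on either FPKM scale and 1 to 12 without 1 clone (1 without het replicate 2, knockout replicate 1 or knockout replicate 2; 12 without knockout replicate 3).

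Of the 8 called members, 8 were called by DESeq2 and by limma-voom, 3 with the local median taken out and 2 to 6 without 1 clone. No called member changed sign. Besides the local median and left-out clones, calls ended for Cep170 with RLE scaling and the 1 CPM filter (0.0507 and 0.0515, edgeR adjusted p), for 2700049A03Rik and Fbf1 with library totals (0.0615 and 0.0734), and for Fbf1 and Cep192 with no filter (0.0923 and 0.0547) or on either FPKM scale (limma, 0.0523 to 0.0944). All genes split 1771 to 1814 in the reported fit, 1892 higher to 1368 lower on log2(FPKM + 1), and 1306 to 1595 with the local median taken out. Removing that median turned Odf2, which was not called, to -0.24.

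Depth limits Dcdc2a, with 13 counts in all, and Bbof1. The number of clones limits changes of the size seen here, and calls close to the threshold depended on single clones.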

Other observations

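Transcripts annotated as keeping an intron were more often lower in the knockout clones, and this held beyond the centriole genes. Over all genes, 73% of 6845 tested retained-intron transcripts had a log2 fold change below 0 (median -0.39, with 40 called higher and 132 lower by edgeR). Of 22073 protein-coding transcripts, 44.4% were below 0 (median 0.09, with 1319 called higher and 1033 lower). Among the 41 genes, 76.2% of 21 retained-intron transcripts were below 0 (median -0.72), against 39.6% of 91 protein-coding ones (median 0.12). The cause was not tested.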
